A study of Mus musculus with 5 samples.

Results

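The genes described here are 10 regulators of RNA processing that are known from heart and skeletal muscle: Matr3, Rbm20, Rbm24, Rbfox1, Rbfox2, Celf1, Mbnl1, Mbnl2, Ptbp1 and Qk. They were chosen by name from 49671 counted genes, and all 10 of 10 passed the filter on low counts. RNA came from whole hearts of C57BL6/J mice at postnatal day 2 (PN2), from littermates that were either wild type at the lncRNA gene Charme (CharmeWT) or carried an inserted PolyA signal that ends Charme transcription early (CharmeKO). Polyadenylated RNA was sequenced from 3 CharmeWT pools of 9 hearts each and 2 CharmeKO pools of 3 hearts each. Pool size therefore cannot be told apart from genotype. The allele is carried by the whole animal, so it is present in every cell type of the heart and not in cardiomyocytes alone.

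MATR3 is a nuclear matrix protein with RNA recognition motifs and zinc fingers that binds pyrimidine-rich RNA, acts together with PTB proteins in the control of splicing, and is a protein partner of the nuclear Charme transcript. Alternative splicing of sarcomere and calcium-handling transcripts changes around birth, when fetal isoforms give way to adult ones. In the heart this switch depends on tissue-restricted regulators such as RBM20, RBM24 and the RBFOX proteins, on a falling level of CELF1 against a rising activity of MBNL proteins, and on general repressors such as PTBP1. Mutations of RBM20 cause dilated cardiomyopathy with mis-spliced titin. Gene counts record how much RNA each regulator had, not which isoforms of its targets were made.

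The study lists RT-qPCR primers for Matr3 and Rbm20, and those of Rbm20 are shown because they mark, for the abundant member with the lower level in both CharmeKO pools, the stretch of the transcript that was amplified. Both Rbm20 primers match the transcript ENSMUST00000164202, of 4892 bases, without a mismatch, the forward primer from base 1301 to 1320 in exon 2 and the reverse primer from base 1395 to 1414 in exon 3. On GRCm38 these lie at chr19:53814261-53814280 and chr19:53815530-53815549 in the plus-strand gene Rbm20 (chromosome 19, 53677306 to 53867080), so that the amplified piece spans a splice junction. The paper names Rbm20 RT-qPCR for primary cardiac cells from wild-type hearts, treated with siRNA against Matr3 or a control siRNA. It does not name Rbm20 RT-qPCR for CharmeKO hearts. From sequencing, the paper does name Rbm20 among genes lower in CharmeKO hearts at PN2. It places Rbm20 with those whose RNA also lost MATR3 binding in fetal CharmeKO hearts. The counts below cover all exons of the gene and not only this piece. The primers are shown 5′ to 3′, with no base in capitals.
Rbm20 forward: tgaacgatttccgaggcttg
Rbm20 reverse: catgcagcttccctttcaca

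Gene counts summed to between 16721055 and 21646378 per pool. Log2 fold changes below are CharmeKO over CharmeWT, and adjusted p-values are from edgeR's quasi-likelihood test over all genes tested unless another test is named. Charme itself had 810, 183 and 276 counts in CharmeWT pools 1 to 3 and 57 and 79 counts in CharmeKO pools 1 and 2. The log2 fold change of Charme was -2.49 (adjusted p = 0.0763, edgeR). The call of Charme was lost without CharmeWT pool 1 (log2 fold change -1.68, adjusted p = 0.153, edgeR) and without CharmeWT pool 3 (-2.72, 0.275). Those fits called 0.0137% and 0% of all genes. The call was also lost in the robust form of the test (adjusted p = 0.120, edgeR). With a replicate block plus a correction for gene length and GC content it was lost too (0.217, edgeR). DESeq2 (adjusted p = 1.99e-05) and edgeR's likelihood ratio test (0.000792) called Charme lower. Cardiomyocyte markers summed to between 53271 and 65223 CPM (counts scaled to library size) in CharmeWT pools and to between 58447 and 64589 CPM in CharmeKO pools, with none of the 10 markers at 0 or called. Of these markers Myh6 (log2 fold change -0.65) and Nkx2-5 (-0.43) were below the CharmeWT range in both CharmeKO pools and Myh7 (0.68) was above it, and DESeq2 called Myh6 lower. Salivary gland markers stood apart, at 0.509 to 3.69 CPM in CharmeWT pools, 345 CPM in CharmeKO pool 1 and 25341 CPM in CharmeKO pool 2, where they took 2.62% of all counts, and 5 of their 8 genes were at 0 in every CharmeWT pool. CharmeKO pool 1 had the lowest TMM factor (the scaling factor of its library), 0.845, while the other 4 pools lay between 1.02 and 1.09. Where a value is given without 1 CharmeKO pool, the other is a lone library that is assumed to vary like the CharmeWT pools.

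Among the 10 regulators, Rbfox1 fell in CharmeKO hearts, to 0.441 of its CharmeWT level, and it was the only one whose difference passed the test. Rbm20, at 0.610 of its CharmeWT level, was below every CharmeWT pool in both CharmeKO pools but missed the threshold. It was called lower by edgeR's likelihood ratio test, the test that the paper used. Matr3 had a higher mean in CharmeKO hearts that rested on 1 of the 2 pools. The other 7 genes, Rbm24, Rbfox2, Celf1, Mbnl1, Mbnl2, Ptbp1 and Qk, had fold values between 0.897 and 1.22, with 95% intervals that all included 0 on the log2 scale. Genes counted as called where the adjusted p was under 0.1 and the mean of either genotype reached 1 FPKM (fragments per kilobase of exon, scaled to library size). By this rule 1 of 10 members was called, against 2.05% of the 14880 genes tested, of which 1.53% were called higher and 0.524% lower in CharmeKO hearts. The log2 fold changes of the members were positive for 5 and negative for 5, with a median of -0.01, beside 0.02 over all genes tested.

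**Figure D1:**
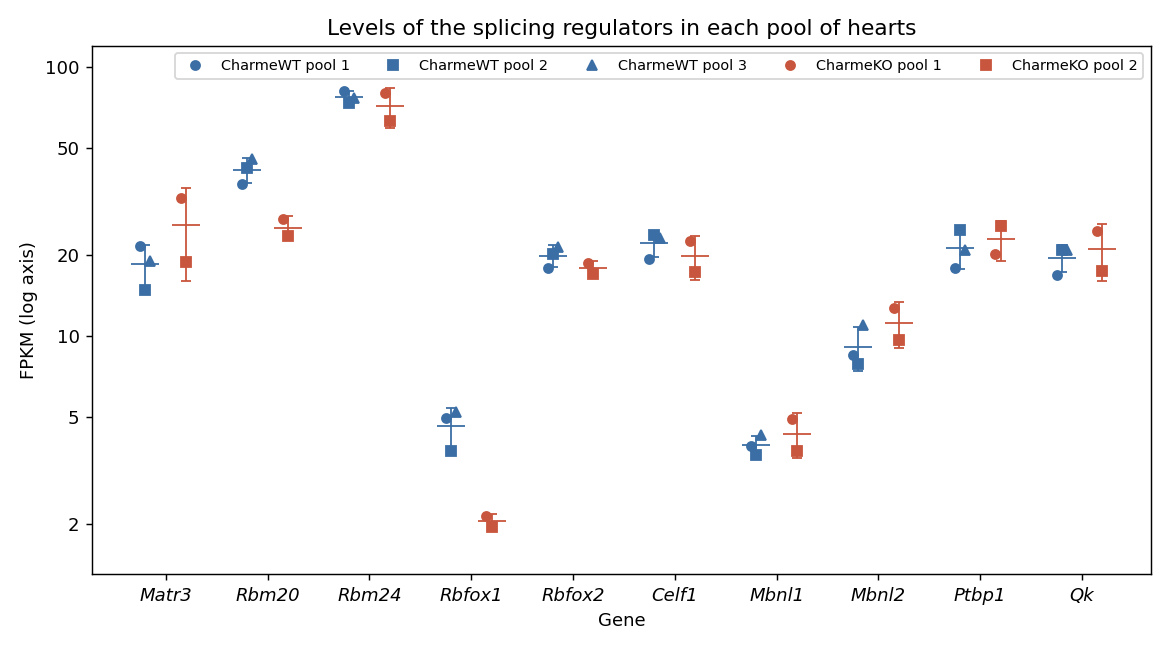
FPKM (log axis) of each of the 10 genes in the 3 CharmeWT pools (blue) and the 2 CharmeKO pools (red), with horizontal bars for the mean and vertical bars for the SD over pools. Both CharmeKO pools lie below all CharmeWT pools for Rbfox1 and Rbm20, and the CharmeKO pools lie far apart for Matr3.

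RBFOX proteins bind a short conserved element beside alternative exons and promote or block their inclusion according to the side on which they bind; Rbfox1 is the member of the family restricted to heart, skeletal muscle and neurons. The gene (chromosome 16, 5885355 to 7411526, plus strand) had 448, 290 and 453 counts in CharmeWT pools 1 to 3, and 133 and 191 counts in CharmeKO pools 1 and 2. Scaled for library size and length these were 4.94, 3.73 and 5.21 FPKM in CharmeWT pools and 2.14 and 1.95 FPKM in CharmeKO pools. The lowest CharmeWT pool was thus well above the higher CharmeKO pool, and the CharmeKO pools were close to each other. The mean was 4.63 ± 0.788 FPKM (SD, n = 3) in CharmeWT and 2.04 ± 0.138 FPKM (SD, n = 2) in CharmeKO hearts. The log2 fold change was -1.18 ± 0.243 (SE, 95% interval -1.72 to -0.64, adjusted p = 0.0649, edgeR). In bulk RNA, fewer cells of a type and less RNA per cell cannot be told apart.

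The Rbfox1 call was lost without CharmeWT pool 1 (log2 fold change -1.13, adjusted p = 0.211, edgeR) and without CharmeWT pool 3 (-1.09, 0.361). Those fits called 0.0137% and 0% of all genes, and 1315 genes of the latter had an unadjusted p under 0.05. Rbfox1 was called without CharmeKO pool 1 (-1.25, adjusted p = 0.0217, same test) and without CharmeKO pool 2 (-1.12, 0.0164), in fits with a lone CharmeKO library that called 4.33% and 31.7% of all genes. DESeq2 (adjusted p = 0.000930) and edgeR's likelihood ratio test (0.00200) kept it too. The direction was the same in every setting tried, with values from -1.36 to -1.07.

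Rbfox2, the broadly expressed member of the same family, had 18.0, 20.3 and 21.5 FPKM in CharmeWT pools and 18.7 and 17.1 FPKM in CharmeKO pools. These groups overlap, and the log2 fold change was -0.16 ± 0.171 (SE, adjusted p = 0.640, edgeR). Of the summed FPKM of Rbfox1, Rbfox2 and Rbfox3, Rbfox1 held 21.6%, 15.5% and 19.5% in CharmeWT pools, and 10.3% and 10.2% in CharmeKO pools. Nearly all of the rest was Rbfox2, since Rbfox3, the neuronal member, did not pass the count filter. The log2 ratio of Rbfox1 to Rbfox2 within a library, which no scaling between libraries can move, was -1.86, -2.44 and -2.05 in CharmeWT pools and -3.12 and -3.13 in CharmeKO pools. The difference of the means was -1.01 (exact two-sided permutation p = 0.1, adjusted p = 0.3 over 6 ratios), where 0.1 is the smallest p that 10 assignments of 3 and 2 pools can give.

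RBM20 represses exons of titin and of calcium-handling transcripts in cardiomyocyte nuclei. It had 5149, 5067 and 6105 counts in CharmeWT pools 1 to 3, and 2601 and 3559 counts in CharmeKO pools 1 and 2. On the FPKM scale the levels were 36.8, 42.2 and 45.5 in CharmeWT pools and 27.1 and 23.5 in CharmeKO pools. Every CharmeWT pool was above both CharmeKO pools. The mean was 41.5 ± 4.37 FPKM (SD, n = 3) in CharmeWT and 25.3 ± 2.58 FPKM (SD, n = 2) in CharmeKO hearts. The log2 fold change was -0.71 ± 0.183 (SE, 95% interval -1.12 to -0.31), with an adjusted p of 0.115 by edgeR, outside the threshold of 0.1.

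Both CharmeKO pools lay outside the range of CharmeWT pools, in the same direction, for 2 of the 10 members, Rbfox1 and Rbm20, both below it. Over all genes tested, 18.2% were below and 17.8% above in this way. Rbm20 was called, with Rbfox1, by 4 of the alternatives. By the likelihood ratio test the adjusted p was 0.0380 (edgeR), with 6.27% of all genes called, and by DESeq2 it was 0.0148, with 7.54% called. Without CharmeKO pool 1 the log2 fold change was -0.82 (adjusted p = 0.0360, edgeR, 4.33% of all genes called) and without CharmeKO pool 2 it was -0.62 (0.0345, with 31.7% called). In both of these fits the CharmeKO arm is 1 library, whose spread is taken from the CharmeWT pools. The part of the cardiomyocyte and salivary gland markers given above in these levels was not tested.

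A joint correction for the length and GC content of genes moved some of these values. In 4 classes of genes by summed exon length, the median log2 fold change was 0.13 in the shortest, then 0.02, -0.03 and -0.03. The longest class held 7 of the 10 members. With the correction of each pool, Rbm20 moved from -0.71 to -0.43 (adjusted p = 0.301, edgeR), and Matr3 from 0.48 to 0.14 (0.684). Both are in the longest class, and the GC content of their longest transcripts was 54.9% for Rbm20 and 38.6% for Matr3. The parts of length and of GC content were not separated. Rbfox1, of a middle length, was at -1.36 and kept its call (adjusted p = 0.0375, same test), when 2.42% of all genes were called. Whether length and GC content differ between the libraries for technical reasons was not tested.

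**Figure D2:**
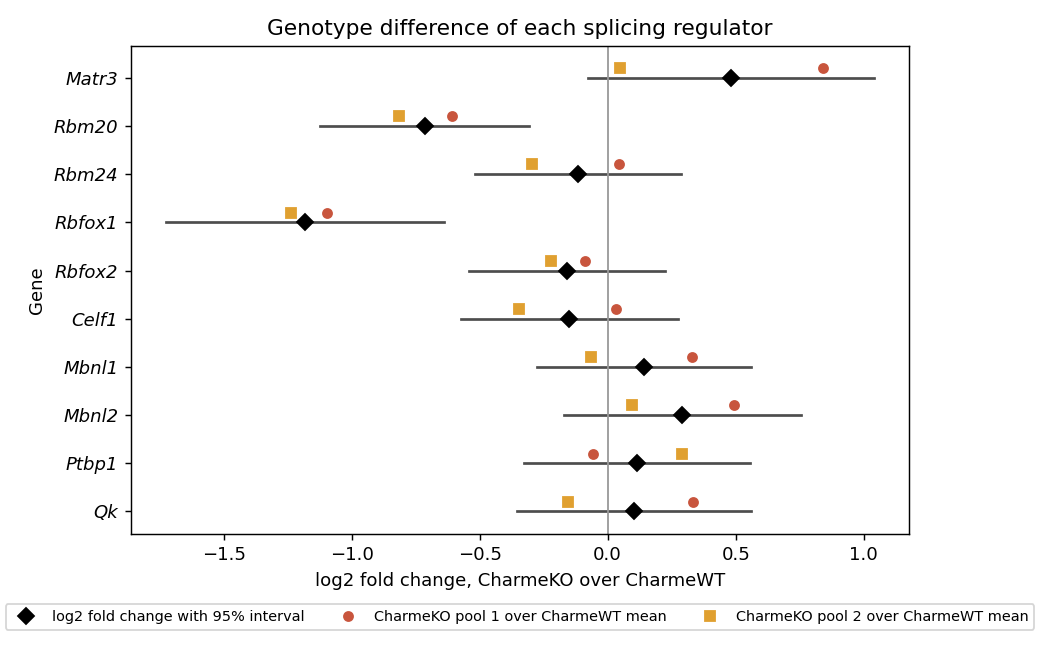
Log2 fold change of each gene, CharmeKO over CharmeWT (black diamonds), with its 95% interval, and each CharmeKO pool against the CharmeWT mean (red circles for pool 1, yellow squares for pool 2). The intervals of Rbfox1 and Rbm20 lie wholly below 0, and pool 1 of Matr3 lies at 0.84 while pool 2 lies at 0.05.

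Matr3 (chromosome 18, 35562138 to 35593835, plus strand), the gene of the protein partner of Charme, had 4505, 2673 and 3814 counts in CharmeWT pools 1 to 3 and 4687 and 4283 counts in CharmeKO pools 1 and 2. This gave 21.5, 14.9 and 19.0 FPKM in CharmeWT pools and 32.7 and 18.9 FPKM in CharmeKO pools. CharmeKO pool 1 was above every CharmeWT pool, and CharmeKO pool 2 was inside their range. The means were 18.5 ± 3.35 FPKM (SD, n = 3) and 25.8 ± 9.75 FPKM (SD, n = 2). The log2 fold change of 0.48 ± 0.250 (SE, 95% interval -0.08 to 1.04) did not pass the test (adjusted p = 0.329, edgeR). Against the CharmeWT mean, CharmeKO pool 1 was at 0.84 and CharmeKO pool 2 at 0.05 on the log2 scale, the widest gap between the CharmeKO pools of any member. Without CharmeKO pool 2 Matr3 was called higher at 0.81 (adjusted p = 0.0156, same test), in a fit that called 31.7% of all genes, and without CharmeKO pool 1 it was at 0.03 (0.964). The counts give no measure of the MATR3 protein or of where in the nucleus it lies.

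The genes whose values over the 5 pools were most like those of Matr3 were Cops2, Gprasp2, Fxr1, Sesn1 and Ap5m1, with root mean square distances of log2 FPKM, after centring, from 0.0353 to 0.0492 among 11911 genes. Their log2 fold changes lay between 0.44 and 0.54, and none was called. For Rbm20 they were Igdcc4, Tmem25, Sipa1l2, Dnmt3a and Thap6, at distances from 0.0417 to 0.0650. Their log2 fold changes lay between -0.83 and -0.71, and none of them was called either.

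**Figure D3:**
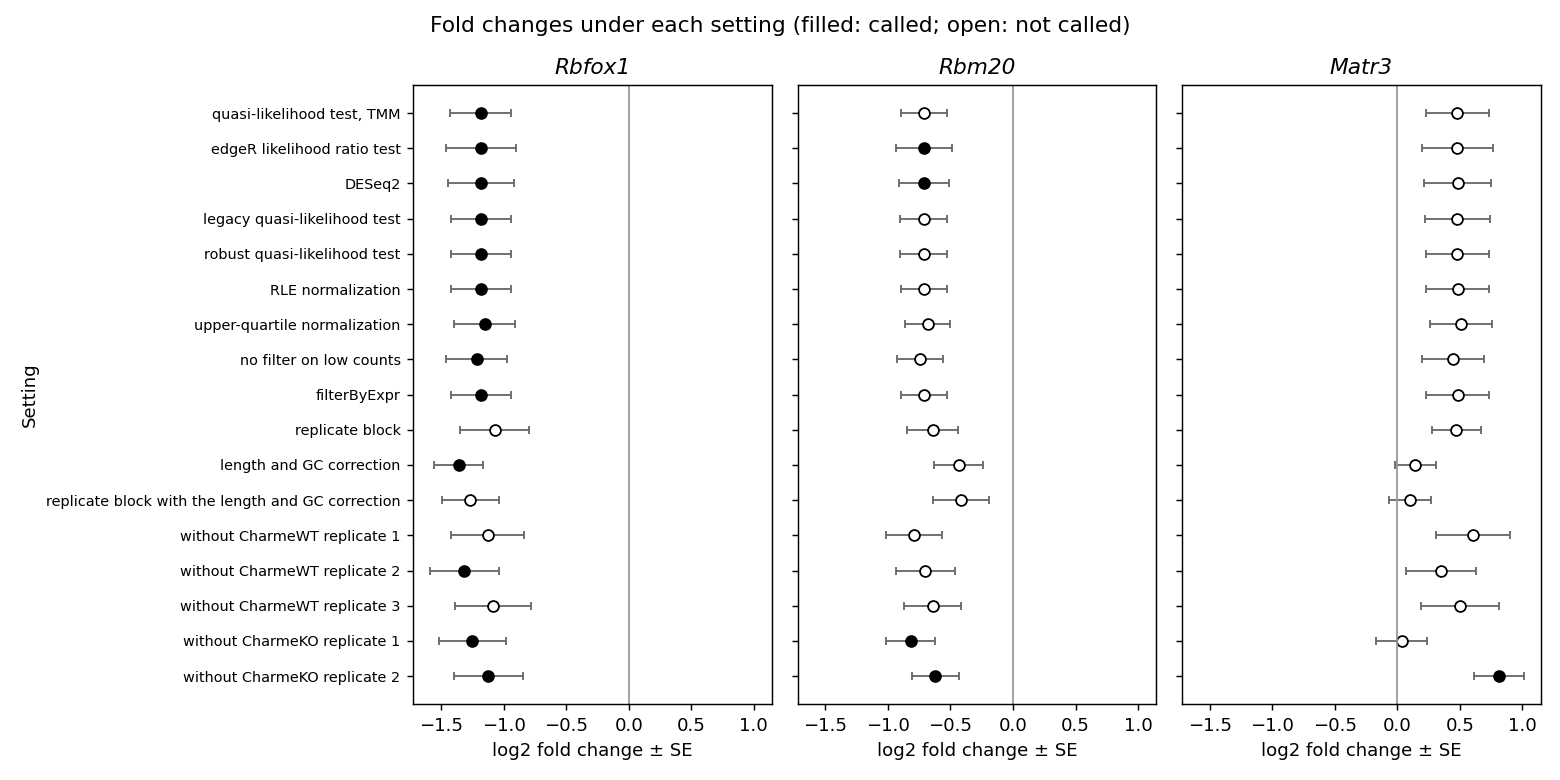
Log2 fold change with its standard error of Rbfox1, Rbm20 and Matr3 under each setting, filled where the gene was called. Rbfox1 stays between -1.36 and -1.07, Rbm20 between -0.82 and -0.42, and Matr3 ranges from 0.03 without CharmeKO pool 1 to 0.81 without CharmeKO pool 2.

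RBM24, a cardiac and skeletal muscle splicing activator needed for sarcomere assembly, was the most abundant of the 10 RNAs. It was at 81.7, 73.6 and 77.0 FPKM in CharmeWT pools, and 79.9 and 63.0 FPKM in CharmeKO pools. One CharmeKO pool lay within the CharmeWT range and the other below it. The log2 fold change was -0.12 ± 0.181 (SE, 95% interval -0.52 to 0.29, adjusted p = 0.750, edgeR). The log2 ratio of Rbm24 to Rbm20 was 1.15, 0.80 and 0.76 in CharmeWT pools and 1.56 and 1.42 in CharmeKO pools. The groups did not overlap, with a difference of 0.59 (exact two-sided permutation p = 0.2, adjusted p = 0.3 over 6 ratios).

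CELF1 and the MBNL proteins act against each other on many exons that switch in the postnatal heart, CELF1 favouring fetal and MBNL1 adult forms. Celf1 was at 19.4, 23.7 and 23.2 FPKM in CharmeWT pools and 22.5 and 17.3 FPKM in CharmeKO pools. Mbnl1 was far lower in FPKM, at 3.91, 3.60 and 4.27 in CharmeWT pools and 4.92 and 3.75 in CharmeKO pools. FPKM divides by exon length, and that of Mbnl1, 18717 bases, was the longest of the members. Its counts were 1508, 1190 and 1581 in CharmeWT pools and 1301 and 1566 in CharmeKO pools. Both genes overlapped between genotypes, with log2 fold changes of -0.15 ± 0.190 (SE) and 0.14 ± 0.187 (SE), and neither was called (adjusted p = 0.689 and 0.702, edgeR). The log2 ratio of Mbnl1 to Celf1, a measure of the balance of their RNAs, was -2.31, -2.72 and -2.44 in CharmeWT pools and -2.19 and -2.20 in CharmeKO pools. It was higher in both CharmeKO pools than in any CharmeWT pool, by 0.29 on average, but the exact two-sided permutation p was 0.2 (adjusted p = 0.3 over 6 ratios). Without 1 pool at a time the difference ranged from 0.18 to 0.38.

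Mbnl2, which has much the same binding preference as Mbnl1, was at 8.48, 7.86 and 11.0 FPKM in CharmeWT pools and 12.7 and 9.64 FPKM in CharmeKO pools. These ranges overlap, and the log2 fold change was 0.29 ± 0.207 (SE, 95% interval -0.17 to 0.75, adjusted p = 0.462, edgeR). It was 0.08 without CharmeKO pool 1 and 0.47 without CharmeKO pool 2. Mbnl2 held 68.3% ± 2.53 (SD, n = 3) of the summed FPKM of the 3 Mbnl genes in CharmeWT and 69.7% ± 0.844 (SD, n = 2) in CharmeKO hearts, and Mbnl1 held 29.7% ± 1.84 and 27.1% ± 0.413. The level of Mbnl2 depends on the gene length taken, 11993 bases in the annotation used here and 4552 bases as the deposited FPKM imply, and with the latter its mean was 24.0 FPKM in CharmeWT and 29.5 FPKM in CharmeKO hearts. Its share of the family in CharmeWT hearts was then 85.0%. Both shares also rest on the Mbnl1 length of 18717 bases, which was the same in the 2 sources. The log2 ratio of Mbnl1 to Mbnl2 was lower by 0.16 in CharmeKO pools, with overlapping groups (exact two-sided permutation p = 0.3, adjusted p = 0.36 over 6 ratios). The length used for FPKM cancels in the fold change of a gene.

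PTBP1, a repressor of muscle and neuronal exons that partners MATR3, was at 18.0, 24.7 and 20.9 FPKM in CharmeWT pools and 20.2 and 25.7 FPKM in CharmeKO pools. It was the only member with a lower level in CharmeKO pool 1 than in CharmeKO pool 2, the other 9 being higher in pool 1. The log2 fold change was 0.11 ± 0.198 (SE, 95% interval -0.33 to 0.56, adjusted p = 0.780, edgeR). Qk, whose protein quaking acts in splicing and RNA stability of muscle and glia, was at 16.9, 20.9 and 20.9 FPKM in CharmeWT pools and 24.6 and 17.5 FPKM in CharmeKO pools. Its groups overlapped too, with a log2 fold change of 0.10 ± 0.204 (SE, adjusted p = 0.808, same test). The directions of Mbnl1 and Qk turned with the length and GC correction, as did that of Rbfox2, and with 1 CharmeKO pool left out those of Rbm24, Celf1, Mbnl1, Ptbp1 and Qk turned.

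Relative to Ptbp1 in the same library, Rbm20 was lower in both CharmeKO pools than in any CharmeWT pool. The log2 ratio of Rbm20 to Ptbp1 was 1.04, 0.77 and 1.12 in CharmeWT pools and 0.43 and -0.13 in CharmeKO pools. The means differed by -0.83 (exact two-sided permutation p = 0.1, the smallest possible, adjusted p = 0.3 over 6 ratios), and leaving out 1 pool at a time gave -1.11 to -0.55. The ratio of Matr3 to Ptbp1 had overlapping groups, at 0.26, -0.73 and -0.14 in CharmeWT pools and 0.69 and -0.44 in CharmeKO pools. Its difference of 0.33 (exact two-sided permutation p = 0.6, adjusted p = 0.6 over 6 ratios) turned to -0.24 without CharmeKO pool 1. In the Ptbp family, Ptbp1 held 66.9% ± 4.63 (SD, n = 3) of the summed FPKM in CharmeWT and 60.4% ± 12.4 (SD, n = 2) in CharmeKO hearts. In the Celf family, Celf1 held 90.8% ± 1.33 (SD, n = 3) and 89.0% ± 1.18 (SD, n = 2), and Celf2 most of the remainder.

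Ordered by mean FPKM in CharmeWT hearts, the members ran from Rbm24 (77.4), Rbm20 (41.5), Celf1 (22.1), Ptbp1 (21.2), Rbfox2 (19.9), Qk (19.6) and Matr3 (18.5) down to Mbnl2 (9.13), Rbfox1 (4.63) and Mbnl1 (3.93). The ranges of neighbours over the pools did not overlap between Rbm24 and Rbm20, Rbm20 and Celf1, Matr3 and Mbnl2, or Mbnl2 and Rbfox1. The 5 genes from Celf1 to Matr3 could not be set in order beyond the spread between pools, nor could Rbfox1 and Mbnl1. In CharmeKO hearts Rbm20 (25.3 FPKM) lay among these middle genes, its range overlapping that of Matr3 (25.8 FPKM), and Rbfox1 was last. With the deposited FPKM, whose lengths are shorter for some genes, Qk had a mean of 28.2 FPKM in CharmeWT hearts and came next after Rbm20, followed by Mbnl2. The low place of Mbnl1 depends on its length of 18717 bases. By counts, Mbnl1 was above Rbfox1 in every pool.

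The deposited counts are on the strand of the gene, and in the annotation used here no other counted gene shared exon bases with a member on the same strand. Matr3 shares 1754 exon bases, 17.3% of its own, with the later gene model Gm28285, which is not among the counted genes. Opposite-strand genes overlap 310 exon bases of Matr3, 3 stretches of Ptbp1, of which the largest is 437 bases, and 86 bases of Mbnl2.

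The wider splicing machinery was described with lists of genes that share the members' roles. Of 30 relatives and other tissue splicing regulators, 23 were tested and none was called by either edgeR test. DESeq2 called 1 (Ptbp2, the neuronal PTB protein, higher). By edgeR's quasi-likelihood test 5 of the 23 had an unadjusted p under 0.05, beside 2767 of all 14880 genes tested. The median log2 fold change of the list was 0.10 (-0.03 without CharmeKO pool 1 and 0.18 without CharmeKO pool 2). The 3 most abundant were Rbm38, which had 51.6 ± 3.45 FPKM (SD, n = 3) in CharmeWT and 41.1 ± 14.1 FPKM (SD, n = 2) in CharmeKO hearts, Rbpms, with 43.5 ± 2.09 and 32.1 ± 1.93 FPKM, and Rbpms2, with 36.9 ± 7.64 and 36.9 ± 4.99 FPKM. Rbpms, an RNA-binding protein of heart and smooth muscle, was below the CharmeWT range in both CharmeKO pools, with a log2 fold change of -0.44 (adjusted p = 0.223, same test). Smooth muscle and pericyte markers were at 466 to 553 CPM in CharmeWT and 361 to 366 CPM in CharmeKO pools. Of the 6 markers 5 had negative log2 fold changes, and the median was -0.56. In both CharmeKO pools 3 were below the CharmeWT range, beside 18.2% of all genes tested. The 1 called was Cnn1, the only one that was higher. DESeq2 and the likelihood ratio test also called Notch3, lower. The part of such cells in the Rbpms level was not tested. Raver1, a cofactor of PTBP1, was listed at 0 counts in all 5 pools. Whether its fragments were left uncounted because of an overlapping gene on the same strand was not tested. Esrp2 and Rbm47, regulators of epithelial splicing named here after their values were seen, had 2 to 10 and 7 to 23 counts in CharmeWT pools, 7 and 9 in CharmeKO pool 1, and 130 and 152 in CharmeKO pool 2, the pool with the most salivary gland RNA. Esrp1, likewise named after its values were seen, did not pass the count filter. It had 0 counts in every CharmeWT pool, 6 in CharmeKO pool 1 and 234 in CharmeKO pool 2.

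SR proteins bind exonic enhancers and promote exon inclusion. Of 12 tested, none was called by the quasi-likelihood test, while DESeq2 called 3 higher and the likelihood ratio test 2 (Srsf3 and Srsf7 in both, with Tra2b). By the quasi-likelihood test 3 of the 12 had an unadjusted p under 0.05, again beside 2767 of all 14880 genes tested. In the list 10 genes had positive log2 fold changes, the median was 0.35 (0.14 without CharmeKO pool 1 and 0.57 without CharmeKO pool 2), and 5 were above the CharmeWT range in both CharmeKO pools, beside a median of 0.02 and a share of 17.8% for all genes. Among the 3 most abundant, Srsf2 had 54.0 ± 7.80 and 67.1 ± 12.9 FPKM (SD, n = 3 and n = 2), Srsf5 33.0 ± 16.1 and 51.5 ± 15.7 FPKM, and Srsf1 29.1 ± 0.618 and 34.0 ± 4.80 FPKM in CharmeWT and CharmeKO hearts. Only Srsf1 of these was above the range.

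The hnRNP proteins coat nascent transcripts and often silence exons. Of 25, 1 rose and none fell, with a median log2 fold change of 0.07 that was 0.00 without CharmeKO pool 1 and 0.37 without CharmeKO pool 2. DESeq2 also called Hnrnpul2 lower. The gene that rose was Hnrnpdl, a paralogue of Hnrnpd. Hnrnpdl was at 28.6, 22.0 and 24.9 FPKM in CharmeWT pools and 44.2 and 43.1 FPKM in CharmeKO pools, a clear gap between the groups. Its log2 fold change was 0.80 ± 0.176 (SE, adjusted p = 0.0765, edgeR). Hnrnpdl was also called without either CharmeKO pool and by both other tests, but not without any 1 of the 3 CharmeWT pools. The most abundant of the list, Pcbp1, Hnrnpab and Hnrnpa0, had log2 fold changes of -0.24, -0.04 and -0.40 and overlapped between genotypes.

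Of 16 nuclear matrix and paraspeckle genes, the class to which MATR3 belongs, none was called, 4 had an unadjusted p under 0.05, and the median log2 fold change was 0.31 (0.13 without CharmeKO pool 1 and 0.19 without CharmeKO pool 2). Satb1, lower, and Neat1, higher, were called by both DESeq2 and the likelihood ratio test. Nono, Sfpq and Ewsr1, the most abundant, were at 0.40, -0.25 and 0.34 and overlapped between genotypes. Of 20 genes of the core spliceosome none was called either. The likelihood ratio test called 1 (Snrpd1, higher) and DESeq2 called 2 (Snrpd1 and Snrpd3). By the quasi-likelihood test 4 of the 20 had an unadjusted p under 0.05, as did 4 of the 16 above, beside 2767 of all 14880 genes tested. The median log2 fold change of the spliceosome genes was 0.12. In both CharmeKO pools 8 of these 20 genes were above the CharmeWT range and none below, beside 17.8% above and 18.2% below over all genes tested. Snrpb, a component of the small nuclear ribonucleoprotein core, was at 74.0 ± 5.23 FPKM (SD, n = 3) in CharmeWT and 95.3 ± 0.0293 FPKM (SD, n = 2) in CharmeKO hearts, Snrpd2 at 33.4 ± 4.19 and 43.9 ± 7.90 FPKM, and Prpf19 at 42.9 ± 3.86 and 42.2 ± 3.08 FPKM. Markers of proliferating cells moved with genotype in the same pools, from 277 to 403 CPM in CharmeWT to 827 to 1464 CPM in CharmeKO pools with 6 of 6 called higher, and their part in the levels of the splicing genes was not tested.

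Transcripts whose splicing RBM20 controls were taken as a last list, for their total RNA. Of 20, 1 fell and none rose, and the median log2 fold change was 0.03, which became -0.24 without CharmeKO pool 1 and 0.16 without CharmeKO pool 2. The one that fell was Cacna1c, the cardiac L-type calcium channel, with 9.52, 8.47 and 10.5 FPKM in CharmeWT pools and 6.12 and 4.89 FPKM in CharmeKO pools, groups that do not overlap. Its log2 fold change was -0.79 ± 0.189 (SE, adjusted p = 0.0958, edgeR). The call was kept without either CharmeKO pool and by both other tests, and it was lost without any 1 of the 3 CharmeWT pools, with the length and GC correction, in the legacy and robust forms of the test and with upper-quartile scaling. Tpm1, Ldb3 and Nexn, the most abundant, were at 0.16, -0.60 and 0.65 on the log2 scale and were not called, Ldb3, a Z-disc protein, being below the CharmeWT range in both CharmeKO pools (156 ± 7.80 and 102 ± 4.47 FPKM; SD, n = 3 and n = 2).

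**Figure D4:**
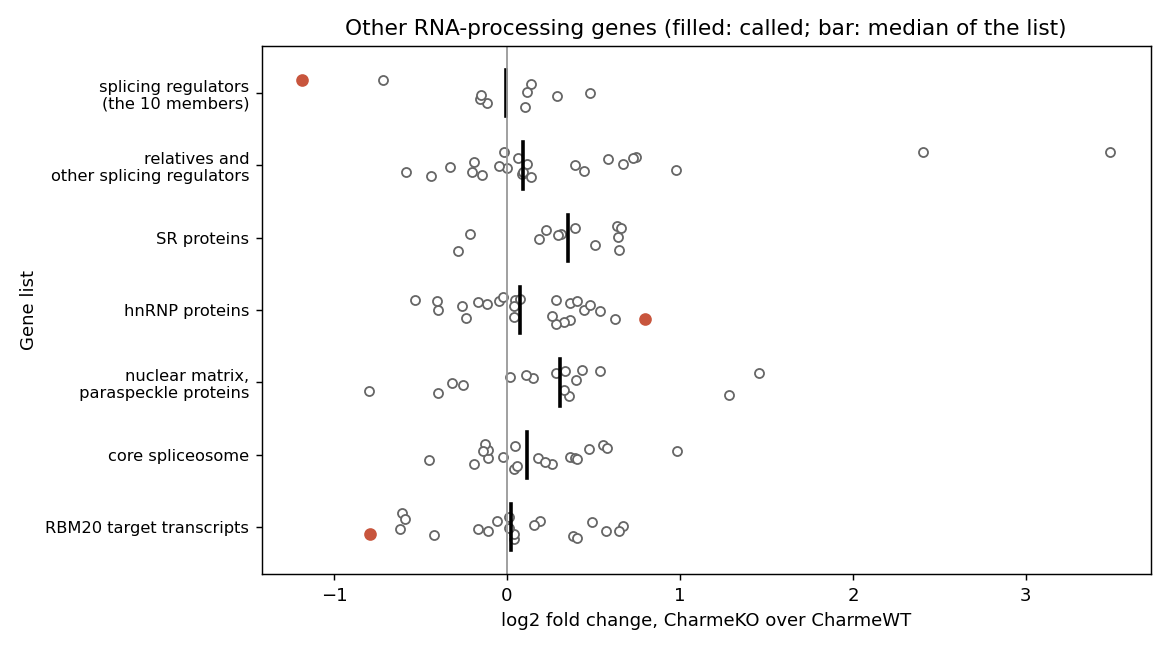
Log2 fold change, CharmeKO over CharmeWT, of each tested gene of the 10 members and of 6 other lists of RNA-processing genes, with the median of each list as a bar and called genes filled. The 3 called genes are Rbfox1 at -1.18, Hnrnpdl at 0.80 and Cacna1c at -0.79.

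Other cell types were checked with marker lists, since several members are also made outside cardiomyocytes. Skeletal muscle markers, of interest because Rbfox1 and Rbm24 are made there too, were at 2999 to 3856 CPM in CharmeWT and 3746 to 4181 CPM in CharmeKO pools, with 2 of 7 tested markers called higher. Most of these sums was Ckm, a creatine kinase that the heart makes too (log2 fold change 0.16). All 7 log2 fold changes were positive, with a median of 2.02. Above the CharmeWT range in both CharmeKO pools lay 17.8% of all genes tested and 5 of these 7 markers. The called ones were Myh8 (2.91), a perinatal myosin, and Mylpf (2.60), a fast-fibre myosin light chain, and both calls were lost without CharmeWT pool 1 and without CharmeWT pool 3. By DESeq2 and by the likelihood ratio test 4 of the 7 were called higher. The part of skeletal muscle RNA in the levels of the members was not tested. Neural and Schwann markers, of interest for Rbfox1, Qk and Celf genes, were at 9.73 to 13.7 and 11.1 to 25.9 CPM with none of 6 called. The likelihood ratio test called 1 of them (Sox10), higher. Endothelial markers were at 883 to 1134 and 816 to 932 CPM with none of 6 called. Fibroblast markers were at 2486 to 2945 and 3170 to 3591 CPM, also with none of 6 called. DESeq2 and the likelihood ratio test called 1 of them (Postn), higher. Macrophage markers were at 78.0 to 118 and 98.4 to 153 CPM with 1 of 6 called higher, and erythroid markers at 866 to 1251 and 1612 to 2279 CPM with 3 of 6 called higher. Over all genes tested, 1.53% were called higher. All 6 erythroid markers were above the CharmeWT range in both CharmeKO pools, beside 17.8% of all genes. DESeq2 and the likelihood ratio test called 5 of the 6 higher, in fits that called 7.54% and 6.27% of all genes.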

How the data were processed

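The authors trimmed 150-nt paired reads with Cutadapt and Trimmomatic, discarded reads under 35 nt, aligned them with STAR to GRCm38 (mm10) and counted fragments on the reverse strand with Ensembl 87 gene models. Raw whole-number counts were deposited, 1 library per pool. The deposited FPKM table (recorded as another unit because of its decimal commas) was made by the authors with edgeR and served here as an alternative. Genes reaching 10 counts in 2 or more pools were normalized by TMM and tested for genotype across all 14880 genes with edgeR 4.0.16 (R 4.3.3), quasi-likelihood test, and Benjamini-Hochberg adjustment; the paper's methods give these settings, with the likelihood ratio test in place of this one. FPKM used GENCODE M21 exon lengths, with 49411 of 49671 genes matched. Standard errors are the absolute log2 fold change over the square root of F. Ratios were tested by exact permutation over 10 assignments of pools, the smallest p being 0.1.

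The members, the lists (relatives, SR, hnRNP, nuclear matrix and paraspeckle, core spliceosome, RBM20 targets, cell type markers) and the tests were chosen with earlier results of these data known. Named genes are the members, Charme, the 3 most abundant of each non-marker list, its called genes, and the 5 patterns nearest to Matr3 and Rbm20. Relatives in a family share and overlapping gene models are named too. Raver1 and single marker genes were named after their values were seen, as were those the text marks so. Further genes of the lists were named because only another test called them. Alternatives were the likelihood ratio test, DESeq2 1.42.0, legacy and robust forms, RLE and upper-quartile scaling, other filters, an adjusted p under 0.05, a replicate block, a length and GC correction (splines of 4 degrees of freedom) and each pool left out. Nothing states that pools were separate litters, so p-values measure only the spread between these pools, and intervals on counts from reads without molecular identifiers cover no other error.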

Additional observations from a re-analysis of the deposited data

How the results depend on the processing

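The count of called genes was 305, against 933 in the likelihood ratio test, 1122 in DESeq2, 111 at an adjusted p under 0.05 and 29 with the replicate block together with the length and GC correction, and between 0 (without CharmeWT pool 3) and 4607 (without CharmeKO pool 2) with 1 pool left out. Members called were 1, and 2 in those same tests, 0 at an adjusted p under 0.05, 0 with the replicate block with or without the correction, and 0 to 3 with 1 pool left out. Rbfox1 was at -1.07 with the replicate block (adjusted p = 0.120, edgeR) and at -1.27 with the block and the correction (0.217), and from -1.31 to -1.09 with 1 pool left out. DESeq2 and edgeR's likelihood ratio test called Rbm20 at -0.71, and it ranged from -0.82 to -0.62 with 1 pool left out, as Matr3 did from 0.0333 to 0.81. Directions reversed with the length and GC correction, without and with the block, for Rbfox2 (0.0227 and 0.0420), Mbnl1 (-0.0796 and -0.0999) and Qk (-0.108 and -0.109). With 1 pool left out, the ranges that crossed 0 were -0.30 to 0.0373 for Rbm24, -0.35 to 0.0217 for Celf1, -0.0656 to 0.32 for Mbnl1, -0.0774 to 0.28 for Ptbp1, -0.16 to 0.32 for Qk and -0.24 to 0.90 for the log2 ratio of Matr3 to Ptbp1; the cause was not tested. Mbnl2 kept its direction and stayed uncalled in all 16 alternatives. With the deposited FPKM the means moved for Rbm24 (84.1 in CharmeWT), Rbfox2 (22.0 in CharmeWT, 19.8 in CharmeKO), Mbnl2 (24.0 and 29.5) and Qk (28.2 and 30.3), as did the Mbnl shares in CharmeWT of Mbnl1 (14.0%) and Mbnl2 (85.0%); without TMM only Rbfox2 in CharmeKO did (16.7). The same 5 genes were nearest to Matr3 and to Rbm20 under RLE normalization. Pools of the 2 genotypes share only a number: same-numbered pools had correlations of their deviations across genes of 0.14 and 0.08, and with 2 such pairs the block gave 210 calls. Hnrnpdl and Cacna1c were not called with the block, with or without the correction. With 3 pools against 2 no exact test can pass 0.05.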
